A study of Mus musculus with 20 samples.

Results

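The class I antigen presentation genes B2m, Tap1, Tap2, Tapbp, H2-K1, H2-D1 and H2-M3 and the immunoproteasome genes Psmb8, Psmb9 and Psmb10 were followed in MEFs, fibroblasts cultured from mouse embryos, after exposure to mouse serum. Every non-control probe whose accession belongs to 1 of these 10 genes in RefSeq was taken, which gave 17 probes of the 41174 on the array and 10 genes of the 17178 that could be named. All 17 probes were well above background on all 20 arrays and were tested, as were 26233 probes in all. The cells were kept for 24 h with serum from female mice of the inbred C3H/HeN strain, and their RNA was then measured on 1-colour Agilent arrays. The 4 groups of 5 arrays each received serum of mice irradiated at 4 Gy (10-day set), serum of non-irradiated mice (0 Gy, 10-day set), serum of mice irradiated at 8 Gy (20-day set) and serum of non-irradiated mice (0 Gy, 20-day set). The labels name the irradiation regime L/MDR without expanding it, do not explain what the days count, and give neither the strain nor the passage of the MEFs. Dose and day change together between the irradiated groups, so a difference between them cannot be given to either. Whether the 5 arrays of a group stand for different cultures or donors of serum is not stated, so a p-value reflects array-to-array spread only, and this may be technical.

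MHC class I molecules show short peptides from inside the cell to cytotoxic T cells. The peptides are cut by the proteasome, carried into the endoplasmic reticulum by the TAP transporter and loaded, with the help of tapasin, onto a heavy chain that is bound to beta-2-microglobulin. Interferons raise the transcription of nearly all of these genes, and of the 3 catalytic immunoproteasome subunits that replace their constitutive counterparts.

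Of the 10 genes, 8 lie on chromosome 17 (GRCm38.p6), B2m lies on chromosome 2 (122147687 to 122153082) and Psmb10 on chromosome 8 (105935728 to 105938392). Psmb9, Tap1, Psmb8 and Tap2 are neighbours within 34292 bases of chromosome 17 (34182030 to 34216321). RefSeq promoter windows, which run from 250 bases before to 50 bases after a gene's start, were found for 9 of the 10 genes. They are shown because these genes share known enhancer sites and because Psmb9 and Tap1 are read in opposite directions from 1 window. The core of the interferon-stimulated response element (ISRE), which is TTTC and TTTC again after any 2 bases, the gamma-activated site (GAS), TTCNNNGAA, and the kappa B site of the class I enhancer, whose letters are the capitals of H2-K1 and H2-D1, were searched on both strands; bases of a match are in capitals. The windows below are in the gene's direction, 5′ to 3′.
Tap1, chr17:34187306-34187605, plus strand: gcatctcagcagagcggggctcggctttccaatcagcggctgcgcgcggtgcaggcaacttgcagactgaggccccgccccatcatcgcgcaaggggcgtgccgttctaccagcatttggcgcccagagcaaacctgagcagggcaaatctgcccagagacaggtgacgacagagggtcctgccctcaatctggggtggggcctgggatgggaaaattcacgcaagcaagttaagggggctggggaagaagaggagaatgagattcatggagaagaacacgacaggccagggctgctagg
B2m, chr2:122147437-122147736, plus strand: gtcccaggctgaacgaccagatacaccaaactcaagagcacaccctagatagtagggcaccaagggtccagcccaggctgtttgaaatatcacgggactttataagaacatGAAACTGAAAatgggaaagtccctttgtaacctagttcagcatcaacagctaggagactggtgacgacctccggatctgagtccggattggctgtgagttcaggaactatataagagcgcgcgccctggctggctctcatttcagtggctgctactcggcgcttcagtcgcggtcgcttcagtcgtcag
H2-K1, chr17:34000284-34000583, minus strand: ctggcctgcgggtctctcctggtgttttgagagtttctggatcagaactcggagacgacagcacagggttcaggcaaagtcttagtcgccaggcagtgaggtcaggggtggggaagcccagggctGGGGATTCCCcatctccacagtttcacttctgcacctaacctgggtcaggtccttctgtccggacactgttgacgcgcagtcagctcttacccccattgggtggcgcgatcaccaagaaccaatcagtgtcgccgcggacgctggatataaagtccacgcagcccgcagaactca
H2-D1, chr17:35262844-35263143, plus strand: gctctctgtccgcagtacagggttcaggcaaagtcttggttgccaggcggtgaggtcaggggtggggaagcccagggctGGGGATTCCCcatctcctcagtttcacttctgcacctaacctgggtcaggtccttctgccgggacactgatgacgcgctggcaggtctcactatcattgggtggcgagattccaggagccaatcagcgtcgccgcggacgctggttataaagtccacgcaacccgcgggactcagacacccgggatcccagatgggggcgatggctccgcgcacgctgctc
H2-M3, chr17:37269984-37270283, plus strand: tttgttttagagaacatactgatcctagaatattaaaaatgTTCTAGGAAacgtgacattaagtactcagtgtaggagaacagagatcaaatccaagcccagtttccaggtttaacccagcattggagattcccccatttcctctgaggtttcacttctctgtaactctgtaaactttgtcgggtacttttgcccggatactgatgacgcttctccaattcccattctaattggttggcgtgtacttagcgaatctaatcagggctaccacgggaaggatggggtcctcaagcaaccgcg
Psmb8, chr17:34197945-34198244, plus strand: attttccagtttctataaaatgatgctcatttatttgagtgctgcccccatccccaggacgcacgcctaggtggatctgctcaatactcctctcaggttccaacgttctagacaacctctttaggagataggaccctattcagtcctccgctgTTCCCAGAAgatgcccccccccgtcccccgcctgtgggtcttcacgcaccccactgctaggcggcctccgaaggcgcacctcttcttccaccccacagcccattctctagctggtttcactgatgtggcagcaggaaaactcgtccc
The Tap1 window and that of Psmb9 (minus strand) share 275 bases, and the Tap1 window held none of the 3 motifs. The kappa B letters were found in H2-K1 and H2-D1. Since the site was chosen as that of the class I enhancer, a match in these genes was built into the search and shows no enrichment. Over all genes, 0.107% of 32851 windows of the same length held it. The ISRE core was found in B2m (3.44% of all windows), and the GAS letters in H2-M3 and Psmb8 (8.30% of all windows). These are matches of letters, not measured binding. Probe sequences were not used here, so the stretch of each transcript that a probe binds is unknown. H2-K1 and H2-D1 are close relatives of each other and of other class I genes, and a probe of one may also bind the transcript of another.

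Values are log2 signals with the array's 75th percentile set to 0, and spots of 1 probe are averaged. Between 56.8% and 67.2% of probes were well above background on an array. The arrays lay on 7 slides. Slide 2 held control array 5 and 4 Gy arrays 1 and 2 of the 10-day set, and every other slide held 1 group. No slide of the 20-day set held both sera, so serum and slide cannot be told apart in that set. The 10-day and the 20-day set were scanned on different days, so set and scan cannot be told apart. The markers of fibroblasts were above background on all arrays (12 of 12 genes), with a summed signal of 1310 to 1472 times the 75th percentile with 4 Gy serum, 1417 to 1539 with its control serum, 1219 to 1340 with 8 Gy serum and 1176 to 1444 with its control serum. The summed signal of 15 macrophage and myeloid markers was 2.50 to 2.98 with 4 Gy serum and 1.91 to 2.67 with its control serum, against 41.5 to 51.1 with 8 Gy serum and 45.7 to 62.3 with its control serum. Of these 15 markers, 12 were above background on all 4 Gy arrays and 11 on all control arrays of the 10-day set. Only Spi1, the master transcription factor of myeloid cells, was not above background on any array of the 10-day set.

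The 3 control arrays of slide 4 (20-day control arrays 1 to 3) stood apart in the agreement of repeat spots. Over 163 probes printed at least 5 times and above background on all arrays, the median SD between spots of 1 probe was 0.05 to 0.10 with 8 Gy serum, against 0.18 to 0.35 on the control arrays of slide 4 and 0.12 to 0.15 on the other 20-day control arrays (slide 5). It was 0.05 to 0.06 with 4 Gy serum and 0.05 to 0.06 with control serum of the 10-day set. A B2m probe (A_51_P129006) and an H2-K1 probe (A_51_P198434) are printed 10 times and show this directly. The B2m spots ran from 3.43 to 3.81 on 8 Gy array 1, against 1.01 to 3.90 on 20-day control array 1. Where a result of the 20-day set depends on the control arrays of slide 4, its value without them is given.

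**Figure D1:**
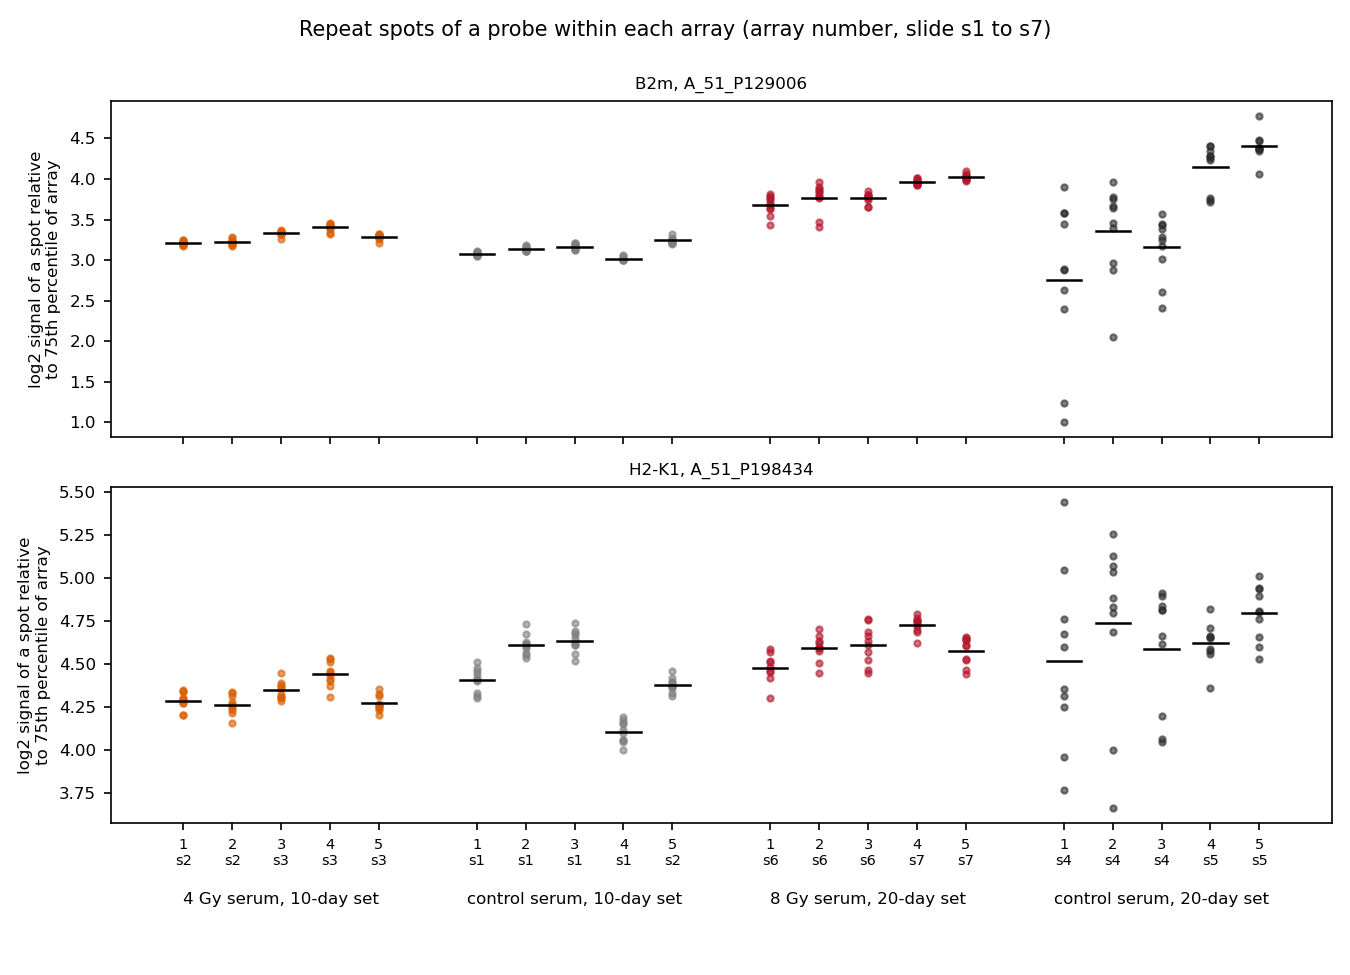
Log2 signal of each spot (y axis, the array's 75th percentile set to 0) of the probes of B2m (top) and H2-K1 (bottom) that are printed 10 times, by array (x axis: array number and slide); the black line is the mean of the spots. The spots of B2m span 3.43 to 3.81 on 8 Gy array 1 and 1.01 to 3.90 on 20-day control array 1.

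The first comparison asked how serum of mice irradiated at 4 Gy changed the pathway relative to serum of non-irradiated mice (10-day set). None of the class I or immunoproteasome genes passed the test: 0 of 17 probes had an adjusted p under 0.05 (limma, Benjamini-Hochberg over all probes tested), where 5.25% of all probes tested did (3.85% higher, 1.40% lower). At an unadjusted p under 0.05 there were 2, both higher with 4 Gy serum. The log2 changes ran from −0.17 (B2m) to 0.29 (H2-K1 and H2-M3), with a median of 0.07, against −0.00 over all probes. The smallest adjusted p was 0.208.

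H2-M3 encodes a nonclassical class I heavy chain that presents N-formylated peptides of bacteria and mitochondria. Its probe A_52_P490263 read −4.38, −4.46, −4.25, −4.10 and −4.27 with 4 Gy serum, against −4.68, −4.66, −4.49, −4.50 and −4.59 with control serum. The 4 Gy arrays all lay above the control arrays, which is so for 1 of the 17 probes and for 8.31% of all probes. The log2 change was 0.29 ± 0.13 (SE, n = 5 arrays per group here and throughout, limma adjusted p = 0.208). In a fit of only these groups the same change passed (limma adjusted p = 0.0335). The other H2-M3 probe changed by −0.01 ± 0.08.

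Several probes split with the slide within the 4 Gy group. The H2-D1 probe A_52_P313279, for a classical class I heavy chain, read 2.00 and 1.96 on 4 Gy arrays 1 and 2 (slide 2) and 2.54, 2.54 and 2.30 on 4 Gy arrays 3 to 5 (slide 3), against 1.90, 2.11, 2.16, 1.81 and 2.16 with control serum. Its log2 change was 0.24 ± 0.11 over all arrays (limma adjusted p = 0.227). Tap1, a subunit of the peptide transporter, read −1.34 and −1.38 on 4 Gy arrays of slide 2 and −0.78, −1.05 and −1.04 on those of slide 3, against −1.30, −1.35, −1.22, −1.36 and −1.37 with control serum. In both cases the 4 Gy arrays that share slide 2 with a control array lay within or just below the range of the control arrays, and the 4 Gy arrays of slide 3 lay above it. Without the 4 Gy arrays of slide 2, 3 probes passed the limma test, all higher: Tap1 (0.36, adjusted p = 0.0275), H2-K1 probe A_52_P474242 (0.45, adjusted p = 0.029) and H2-D1 probe A_52_P313279 (0.43, adjusted p = 0.00636). Without those of slide 3 the adjusted p was 1.00 for each probe. Within slide 2, where 2 irradiated arrays met 1 control array, the 17 differences ran from −0.19 to 0.21 with a median of 0.01, 10 above 0 and 7 below.

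The immunoproteasome subunits differed little between these groups. Psmb8, which replaces the catalytic subunit Psmb5, read 0.40, 0.36, 0.72, 0.86 and 0.50 with 4 Gy serum (probe A_51_P345366), against 0.77, 0.72, 0.93, 0.16 and 0.23 with control serum, a log2 change of 0.00 ± 0.15. Psmb9, which replaces Psmb6, changed by −0.01 ± 0.14, and Psmb10, which replaces Psmb7, by −0.10 ± 0.18. Each of these differences was smaller than its standard error, which rests on 1 estimate of spread shared by all 4 groups. For Psmb10 the SD was 0.06 with 4 Gy serum and 0.09 with its control serum, against 0.58 with 20-day control serum. Its standard error here is therefore wider than the 10-day arrays alone would give.

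The second comparison asked the same of serum of mice irradiated at 8 Gy (20-day set). The peptide transporter and loading genes Tap1, Tap2 and Tapbp and the heavy chain genes H2-K1 and H2-D1 were higher with 8 Gy serum by at least 1 probe, whereas the heavy chain gene H2-M3 was lower by both probes and B2m by 1 of 2. The immunoproteasome genes Psmb8, Psmb9 and Psmb10 did not pass the test. In all, 11 of 17 probes passed (limma, adjusted p under 0.05), where 48.0% of all probes tested did. Of the 17, 8 were higher and 3 lower, against 20.6% and 27.4% of all probes. The median log2 change was 0.28 over the 17 probes and −0.06 over all probes. The groups of arrays did not overlap for 10 of the 17, as for 29.5% of all probes.

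**Figure D2:**
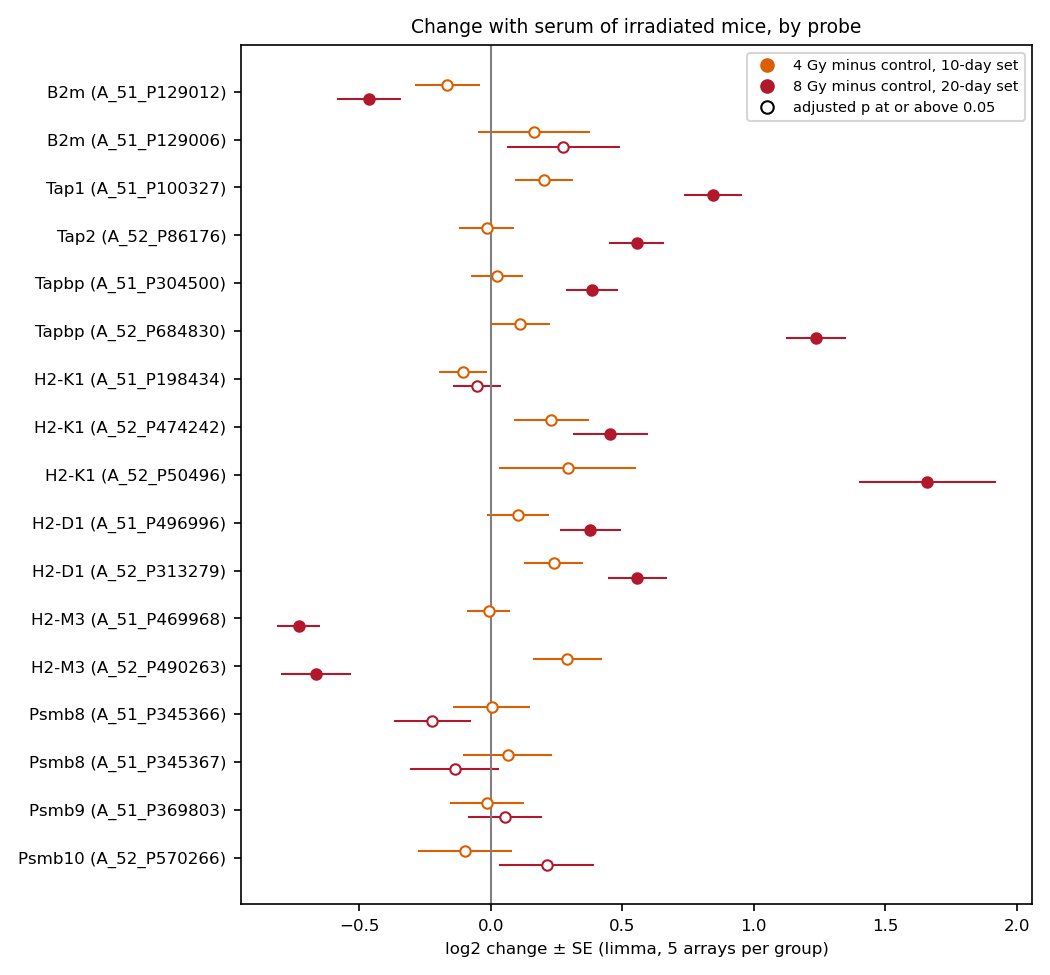
Log2 change ± SE (x axis) of each of the 17 probes (y axis) with 4 Gy serum over control serum of the 10-day set (orange) and with 8 Gy serum over control serum of the 20-day set (red), from limma on 5 arrays per group; open points have an adjusted p at or above 0.05. All 10-day points are open and lie between −0.17 and 0.29; the 20-day points run from −0.73 (H2-M3) to 1.66 (H2-K1).

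Tap1 forms the transporter together with Tap2. Tap1 (chromosome 17, 34187556 to 34197225) read −1.82, −1.86, −1.67, −1.65 and −1.82 with 8 Gy serum, against −2.40, −2.48, −2.80, −2.86 and −2.50 with control serum. All 8 Gy arrays lay above all control arrays, by a log2 change of 0.84 ± 0.11, or 1.79-fold (limma adjusted p = 6.56e-06). Without the control arrays of slide 4 the change was 0.91 ± 0.14 (adjusted p = 6.09e-05). The call was lost with normexp background correction and quantile normalisation together (0.28, adjusted p = 0.0587).

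Tap2 (34204479 to 34216321) read −1.60, −1.72, −1.57, −1.43 and −1.51 with 8 Gy serum, against −1.95, −2.27, −2.42, −2.12 and −1.85 with control serum. The groups did not overlap, and the change was 0.55 ± 0.10, or 1.47-fold (limma adjusted p = 0.000248). It was 0.42 ± 0.11 without the control arrays of slide 4 (adjusted p = 0.00599).

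Tapbp encodes tapasin, which holds the empty class I molecule at the transporter. Its probe A_52_P684830 read −1.15, −1.30, −0.80, −1.09 and −1.27 with 8 Gy serum, against −2.33, −2.17, −2.28, −2.70 and −2.29 with control serum. The groups lay far apart, and the change of 1.24 ± 0.11 (2.35-fold, limma adjusted p = 1.43e-07) had the smallest p of the 17. Its probe A_51_P304500 read 2.81, 2.79, 3.04, 2.87 and 2.71 with 8 Gy serum, against 2.54, 2.67, 2.47, 2.13 and 2.48 with control serum, a smaller change of 0.39 ± 0.10 (adjusted p = 0.00358). The larger change was 1.38 ± 0.15 and the smaller 0.54 ± 0.12 without the control arrays of slide 4. The smaller was not called after scaling to the array median (0.24, adjusted p = 0.0625) or with normexp and quantile normalisation (0.20, adjusted p = 0.239).

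H2-K1 encodes a classical heavy chain, and its 3 probes did not give 1 answer. Probe A_52_P50496 read −0.11, −0.19, −0.05, −0.01 and −0.15 with 8 Gy serum, against −2.11, −2.54 and −2.36 on the control arrays of slide 4 and −1.05 and −0.75 on those of slide 5. The 8 Gy arrays were tightly grouped and above every control array, while the control arrays formed 2 separate levels. The change was 1.66 ± 0.26 (3.16-fold, limma adjusted p = 4.56e-05) over all arrays, 0.80 ± 0.16 without the control arrays of slide 4 (adjusted p = 0.000756) and 2.24 ± 0.14 without those of slide 5. Probe A_52_P474242 read 1.07, 1.03, 0.98, 1.01 and 0.90 with 8 Gy serum, against 1.08, 0.35, 0.53, 0.25 and 0.50 with control serum. Here 1 control array was as high as the highest 8 Gy arrays, and the change of 0.45 ± 0.14 (adjusted p = 0.0131) lost its call after scaling to the array median (0.31, adjusted p = 0.0694), with slide as a random block (0.47, adjusted p = 0.0614) and without the control arrays of slide 5 (0.34, adjusted p = 0.0857). Probe A_51_P198434, the one printed 10 times, read 4.48, 4.60, 4.61, 4.73 and 4.58 with 8 Gy serum, against 4.52, 4.74, 4.59, 4.62 and 4.80 with control serum, a change of −0.05 ± 0.09 that did not pass (adjusted p = 0.652).

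H2-D1 is the other classical heavy chain measured. Probe A_52_P313279 read 3.27, 3.15, 3.26, 3.33 and 3.13 with 8 Gy serum, against 2.75, 2.74, 2.51, 2.59 and 2.76 with control serum. The groups were apart and the change was 0.56 ± 0.11 (1.47-fold, limma adjusted p = 0.000495), with 0.55 ± 0.15 without the control arrays of slide 4 (adjusted p = 0.00674). Probe A_51_P496996 changed by 0.38 ± 0.12 (adjusted p = 0.0118), from arrays at 3.56 to 3.73 with 8 Gy serum and 3.07 to 3.52 with control serum. Its call was lost after scaling to the array median (0.24, adjusted p = 0.0915) and without the control arrays of slide 5 (0.27, adjusted p = 0.0919).

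H2-M3 (37270234 to 37274485) went the other way. Probe A_51_P469968 read −0.06, 0.26, 0.22, 0.11 and 0.21 with 8 Gy serum, against 0.83, 1.14, 0.78, 0.82 and 0.82 with control serum. Every 8 Gy array was below every control array, and the log2 change was −0.73 ± 0.08, 1.66-fold lower (limma adjusted p = 1.3e-06). Probe A_52_P490263 read −3.42, −3.61, −3.57, −3.88 and −3.70 with 8 Gy serum, against −3.05, −2.40, −3.35, −3.11 and −2.95 with control serum, a change of −0.66 ± 0.13 (adjusted p = 0.000435). The changes without the control arrays of slide 4 were −0.67 ± 0.09 and −0.61 ± 0.11.

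B2m encodes beta-2-microglobulin, the invariant chain of every class I molecule, and its 2 probes differed. Probe A_51_P129012 read 5.50, 4.99, 5.48, 5.49 and 5.53 with 8 Gy serum, against 5.93, 5.54, 5.88, 6.11 and 5.84 with control serum, a change of −0.46 ± 0.12 (1.38-fold lower, limma adjusted p = 0.00453). The highest 8 Gy array lay just below the lowest control array. Its call was lost with quantile normalisation (−0.22, adjusted p = 0.175), cyclic loess (−0.18, adjusted p = 0.273) and normexp with quantile normalisation (−0.04, adjusted p = 0.872). Probe A_51_P129006 read 3.68, 3.77, 3.76, 3.96 and 4.03 with 8 Gy serum, against 2.75, 3.35 and 3.16 on the control arrays of slide 4 and 4.14 and 4.40 on those of slide 5. The 8 Gy arrays lay between the 2 levels of the control arrays, so the change was 0.28 ± 0.21 over all arrays (adjusted p = 0.301), −0.43 ± 0.10 without slide 4 (adjusted p = 0.00229) and 0.75 ± 0.11 without slide 5 (adjusted p = 5.17e-05). On the control arrays of slide 4, this probe's spots differed by an SD of 0.38 to 0.98 within 1 array.

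None of the immunoproteasome subunits passed over all arrays. Psmb8 read 1.77, 2.04, 2.07, 1.78 and 1.59 with 8 Gy serum (probe A_51_P345366), against 1.96, 2.21, 2.05, 1.93 and 2.21 with control serum, a change of −0.22 ± 0.15 (limma adjusted p = 0.22). Psmb9 read 0.38, 0.73, 0.76, 0.47 and 0.37 with 8 Gy serum, against 0.56, 0.27, 0.36, 0.60 and 0.65 with control serum, a change of 0.05 ± 0.14. The arrays of the 2 groups overlapped for both. Psmb10 read 3.64, 3.62, 3.67, 3.48 and 3.50 with 8 Gy serum, against 3.72, 2.88, 2.66, 4.02 and 3.57 with control serum. Its change was 0.21 ± 0.18 (adjusted p = 0.344), and it was 0.50 ± 0.16 without the control arrays of slide 5 (adjusted p = 0.0146) and −0.21 ± 0.10 without those of slide 4 (adjusted p = 0.088), so its direction depended on which control arrays were used. It passed as higher with quantile normalisation (0.42, adjusted p = 0.0496) and with normexp and quantile normalisation together (0.67, adjusted p = 0.00264).

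**Figure D3:**
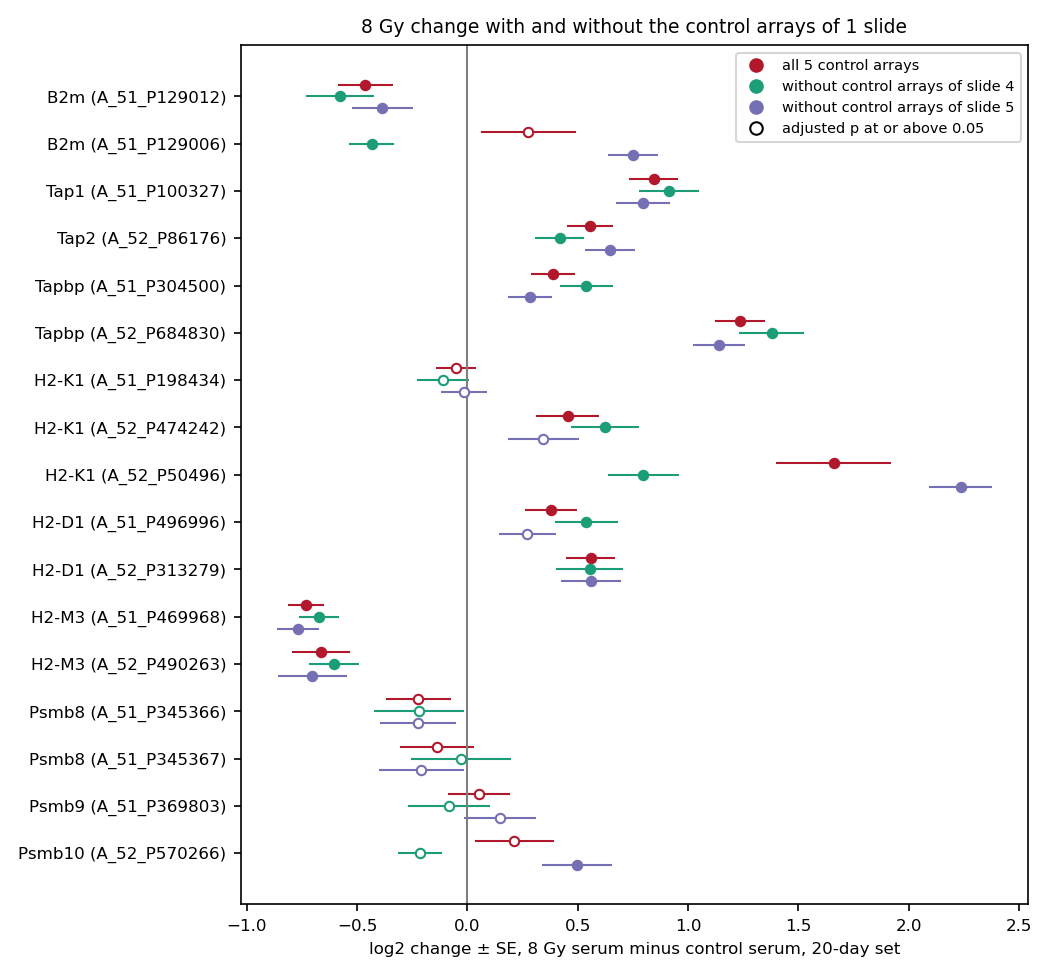
Log2 change ± SE (x axis) of each of the 17 probes (y axis) with 8 Gy serum over control serum of the 20-day set, with all 5 control arrays (red), without the 3 control arrays of slide 4 (green) and without the 2 control arrays of slide 5 (violet); open points have an adjusted p at or above 0.05. The sign was kept by 14 of 17 probes without slide 4 and by 17 of 17 without slide 5, and B2m probe A_51_P129006 is at −0.43 without slide 4 and at 0.28 with all arrays.

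All 11 probes called over all arrays were also called, with the same sign, without the control arrays of slide 4, and 9 of the 11 without those of slide 5. The 2 lost without slide 5 were H2-K1 probe A_52_P474242 and H2-D1 probe A_51_P496996. With slide as a random block 10 of 17 passed. Of the macrophage and myeloid markers, 6 of 14 tested were lower with 8 Gy serum, 0 were higher and 8 did not pass. Of all 20225 genes, 46.4% passed in either direction, 3520 higher and 5867 lower. Among the 6 were Ptprc, the phosphatase common to leukocytes (−0.61), and Adgre1, a surface receptor of macrophages (−0.78). H2-M3 and the B2m probe A_51_P129012 moved in the same direction as these 6 markers, and the Tap and Tapbp genes in the other. Their part in these results was not tested. In whole cultures, fewer cells of a type and less RNA per cell cannot be told apart.

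The difference between the 2 responses was tested in the same fit. The 8 Gy change exceeded the 4 Gy change for Tap1 (by 0.64 ± 0.16, limma adjusted p = 0.00362), Tap2 (0.57 ± 0.15, adjusted p = 0.00545), Tapbp probe A_52_P684830 (1.13 ± 0.16, adjusted p = 4.5e-05) and H2-K1 probe A_52_P50496 (1.37 ± 0.37, adjusted p = 0.00748). It was below the 4 Gy change for both H2-M3 probes, by −0.72 ± 0.12 (adjusted p = 0.000134) and −0.96 ± 0.19 (adjusted p = 0.000692). These were 6 of 17 probes, 4 above and 2 below, where 36.4% of all probes passed (15.3% above, 21.1% below). For the H2-D1 probes the difference was 0.28 ± 0.16 and 0.32 ± 0.16 and did not pass (adjusted p = 0.203 and 0.126), but both passed with quantile normalisation (0.46, adjusted p = 0.0387, and 0.45, adjusted p = 0.0477). Tapbp probe A_51_P304500 missed the threshold narrowly (0.36 ± 0.14, adjusted p = 0.051), and it passed without the control arrays of slide 4 (0.51, adjusted p = 0.0116). The H2-K1 difference did not pass without the control arrays of slide 4 (0.50, adjusted p = 0.0513), and the Tap1 difference did not with normexp and quantile normalisation (0.20, adjusted p = 0.365).

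The sets were then compared with each other, control serum with control serum and irradiated with irradiated, to see what level each response started from. With control serum, Psmb8, Psmb9, both H2-M3 probes and 1 probe each of B2m and H2-D1 were higher in the 20-day set, while Tap1, Tap2 and Tapbp were lower. Psmb10 and H2-K1 probe A_51_P198434 were higher and H2-K1 probe A_52_P50496 was lower, but these 3 calls depended on the arrays or the processing. The A_51_P198434 difference of 0.22 (limma adjusted p = 0.0357) was lost when any of 5 of 10 arrays was left out, without a filter on dim probes (adjusted p = 0.0537), in a fit of only these groups (0.106), with slide as a random block (0.151) and without slide 5 (0.126). It had the opposite sign, without passing, with quantile normalisation (−0.17, adjusted p = 0.116), cyclic loess (−0.19, 0.0756) and normexp with quantile normalisation (−0.18, 0.0985). Without the control arrays of slide 4, the A_52_P50496 difference was −0.32 (adjusted p = 0.0894) and not −1.18, that of B2m probe A_51_P129006 was 1.14 (adjusted p = 5.86e-08) and not 0.43 (0.0801), and that of Psmb10 was 0.84 (1.99e-06) and not 0.41. In all, 14 of 17 probes passed, 9 higher and 5 lower in the 20-day set, where 67.8% of all probes passed (35.4% higher, 32.3% lower). With serum of irradiated mice 14 of 17 passed, 11 higher and 3 lower in the 20-day set, where 57.1% of all probes passed (28.2% higher, 28.9% lower). The arrays of the sets did not overlap for 11 of 17 probes with serum of irradiated mice, as for 51.2% of all probes, and for 12 of 17 with control serum, as for 50.7%. Since each set was scanned on a day of its own, these differences cannot be told apart from a difference between scans.

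**Figure D4:**
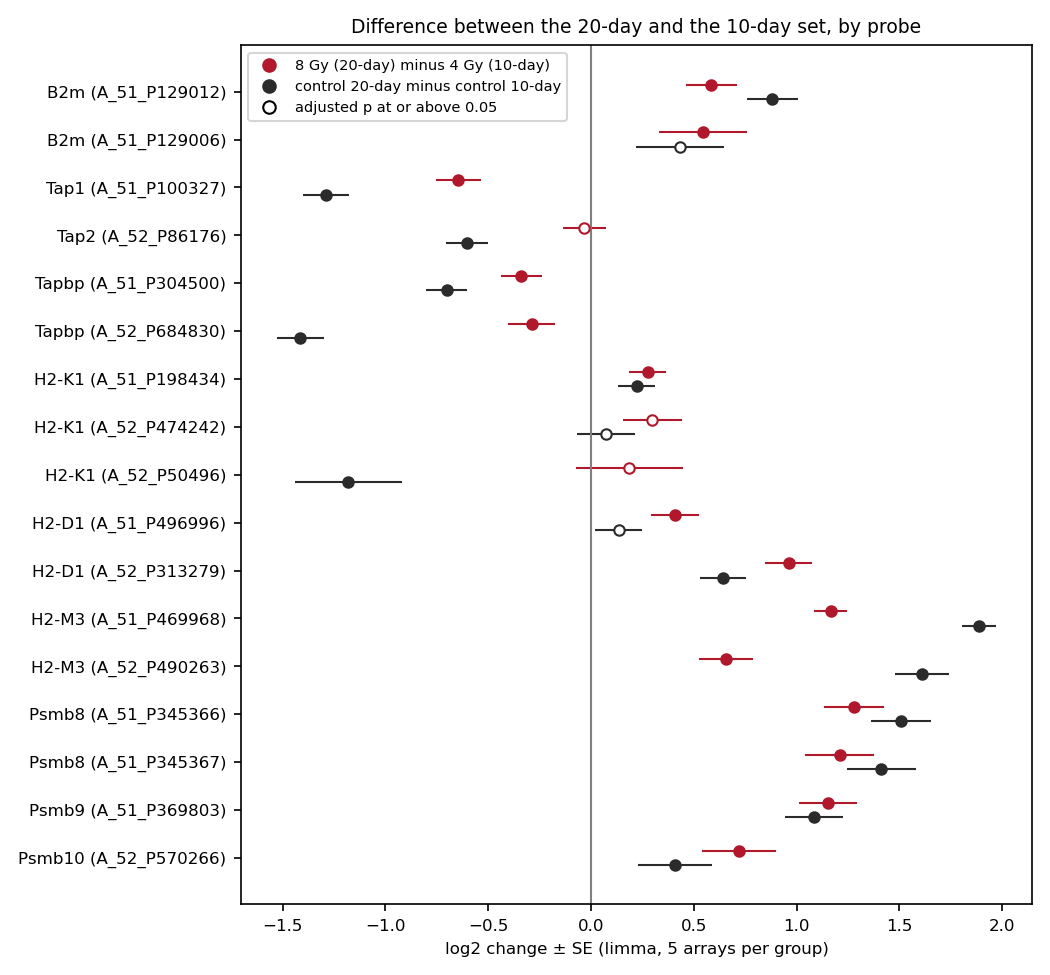
Log2 difference ± SE (x axis) of each of the 17 probes (y axis) between the 20-day and the 10-day set, with serum of irradiated mice (8 Gy minus 4 Gy, red) and with control serum (black), from limma on 5 arrays per group; open points have an adjusted p at or above 0.05. H2-M3, Psmb8 and Psmb9 lie to the right for both kinds of serum, and Tap1 to the left (−0.65 and −1.29).

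Psmb8 and Psmb9 had the same pattern in both kinds of serum. Psmb8 (probe A_51_P345366) averaged 1.85 ± 0.20 with 8 Gy serum and 0.57 ± 0.21 with 4 Gy serum, and 2.07 ± 0.13 with 20-day control serum and 0.56 ± 0.35 with 10-day control serum (SD, n = 5 each). The differences between sets were 1.28 ± 0.15 with serum of irradiated mice and 1.51 ± 0.15 with control serum (SE, limma adjusted p = 6.16e-07 and 2.87e-08). Psmb9 was 1.15 ± 0.14 higher with irradiated serum and 1.09 ± 0.14 higher with control serum. No 20-day array of either gene overlapped a 10-day array. Psmb10 was 0.72 ± 0.18 higher with irradiated serum (adjusted p = 0.00208), whereas with control serum the difference of 0.41 ± 0.18 (adjusted p = 0.0499) was lost when any of 8 of 10 arrays was left out. It was also lost with quantile normalisation (0.09, adjusted p = 0.648), cyclic loess (0.10, 0.626), normexp with quantile normalisation (−0.18, 0.340), no filter (0.0656), 1 probe per gene (0.0511), only these groups (0.151), slide as a random block (0.104), the replicate block (0.0622) and without slide 5 (0.13, 0.493).

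H2-M3 showed the largest set difference of the 17 probes with control serum (1.89 ± 0.08, 3.7-fold, limma adjusted p = 4.24e-13, probe A_51_P469968). With serum of irradiated mice it was 1.17 ± 0.08. The 8 Gy group lay between the 20-day control group and both 10-day groups, and these did not differ beyond their spread: they averaged −1.02 ± 0.07 with 4 Gy serum and −1.01 ± 0.12 with control serum. B2m probe A_51_P129012 was 0.59 ± 0.12 higher with irradiated serum and 0.88 ± 0.12 higher with control serum. With normexp and quantile normalisation both differences were 0.30 and neither passed (adjusted p = 0.122 with irradiated serum and 0.111 with control serum).

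Tap1, which shares its promoter window with Psmb9, was lower in the 20-day set by −0.65 ± 0.11 with serum of irradiated mice (limma adjusted p = 6.5e-05) and by −1.29 ± 0.11 with control serum (adjusted p = 5.11e-09). Psmb9 and Tap1 therefore differed between the sets in opposite directions. Tap2 differed by −0.03 ± 0.10 with irradiated serum (adjusted p = 0.805) and by −0.60 ± 0.10 with control serum. Tapbp probe A_52_P684830 differed by −0.29 ± 0.11 with irradiated serum and −1.41 ± 0.11 with control serum, and the smaller of these lost its call after scaling to the array median (−0.23, adjusted p = 0.109), with quantile normalisation (0.0603), cyclic loess (0.0949), no filter (0.0642), slide as a random block (0.154) and when any of 7 of 10 arrays was left out. Tap2 averaged −1.53 ± 0.13 with 4 Gy serum, −1.52 ± 0.14 with 10-day control serum and −1.57 ± 0.11 with 8 Gy serum, which did not differ beyond their spread, and the 20-day control group lay below them at −2.12 ± 0.23 (SD, n = 5 each). For Tap1, Tapbp and H2-K1 probe A_52_P50496 too, the 20-day control group was the lowest of the 4. The 8 Gy and 4 Gy arrays of H2-K1 probe A_52_P50496 averaged −0.10 ± 0.07 and −0.29 ± 0.32, against −1.76 ± 0.81 and −0.58 ± 0.11 with 20-day and 10-day control serum. H2-D1 probe A_52_P313279 stood apart from this pattern, being higher in the 20-day set with both sera (0.96 ± 0.11 and 0.64 ± 0.11).

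The macrophage and myeloid markers moved with the sets as well. All 14 of 14 tested were higher in the 20-day set, where 57.9% of all genes passed with serum of irradiated mice and 66.5% with control serum, in either direction. The 14 markers had a median log2 difference of 3.79 with serum of irradiated mice and 4.23 with control serum. A marker was tested if all arrays of some group were above background. That held for 14 markers with 8 Gy serum and 13 with its control serum, against 12 with 4 Gy serum and 11 with its control serum. For markers that entered through the 20-day groups alone, the filter itself favoured a higher value there. Irf8, a transcription factor of myeloid cells and of interferon responses, was 2.86 ± 0.14 and 3.00 ± 0.14 higher. It was listed with the regulators of the class I genes and not with these markers. Of 10 regulators, 2 were higher and 2 lower in the 20-day set with serum of irradiated mice. With control serum 5 were higher and 2 lower. Of 5 B cell markers 0 were above background on all arrays of any group. Of 12 fibroblast markers 3 were higher and 7 lower in the 20-day set with serum of irradiated mice, and 3 were higher and 8 lower with control serum. The part of these differences in those of the class I and immunoproteasome genes was not tested.

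**Figure D5:**
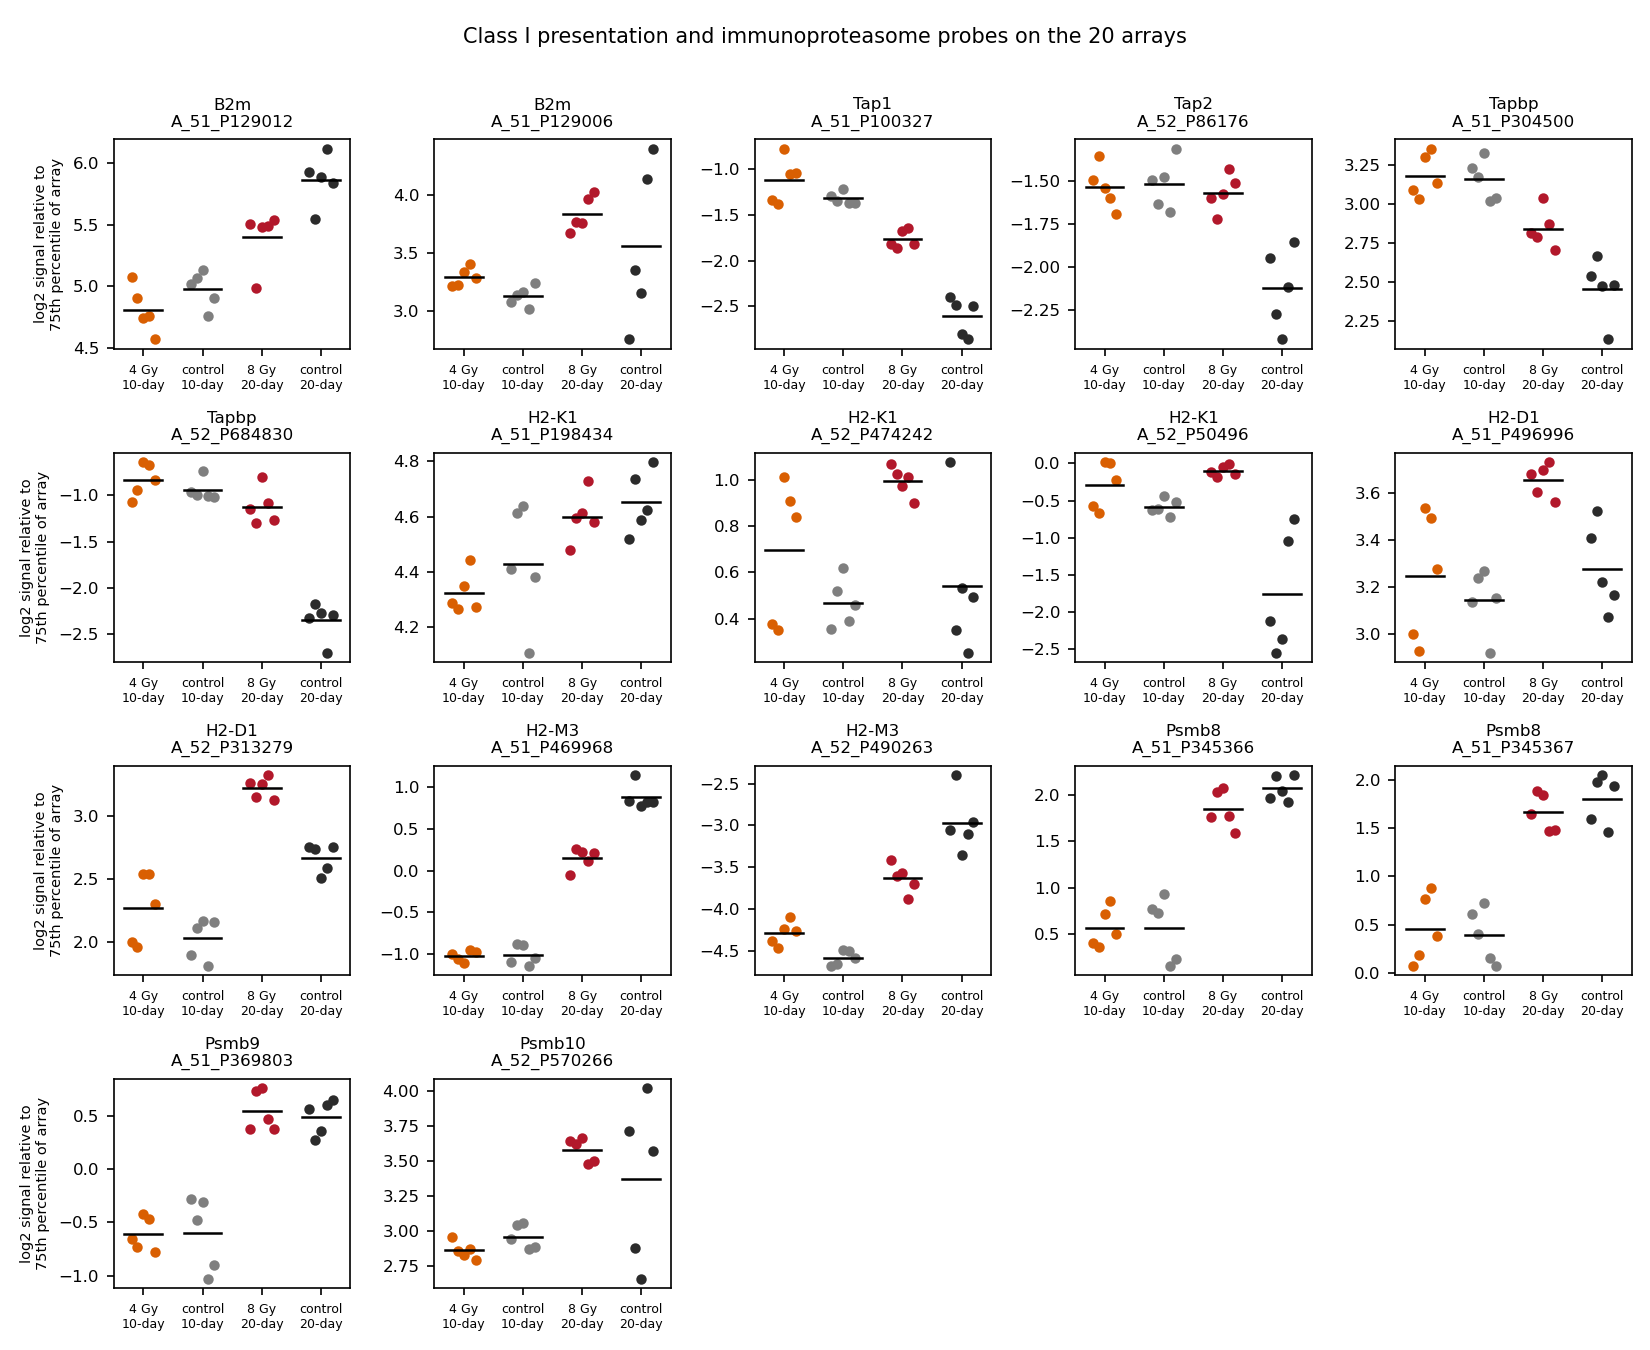
Log2 signal (y axis, the array's 75th percentile set to 0) of the 17 probes on the 20 arrays, 1 panel per probe with its own scale; groups on the x axis, a point per array, and a black line for the mean of 5 arrays. The 20-day control group is the lowest of the 4 for Tap1, Tap2 and Tapbp and the highest for H2-M3; Psmb8 and Psmb9 separate the sets and not the sera.

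Probes of 1 gene agreed to different degrees over the 20 arrays, which share set and slide. Pearson's r between probes was 0.98 for Psmb8, 0.95 for H2-M3, 0.93 for Tapbp and 0.87 for H2-D1. It was 0.43 for B2m, and for the 3 pairs of H2-K1 probes it was 0.14, −0.23 and 0.40. Single probes of B2m and H2-K1 thus describe their gene less well than those of the other genes with several probes. Among genes, each by its probe with the highest mean signal, Psmb8 and Psmb9 had an r of 0.97 (0.81 after the group means were removed) and Tap1 and Tapbp one of 0.95 (0.72). Tap1 and Psmb9 had an r of −0.73, and 0.29 after the group means were removed.

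Other genes of the pathway were counted by list, 1 probe per gene. With 4 Gy serum the lists held few calls, as did all genes tested (5.60%). Psmb6, the constitutive counterpart of Psmb9, was higher (0.52, limma adjusted p = 0.0435), and so was Ifi47, an interferon-induced GTPase (0.40, adjusted p = 0.0455). With slide as a random block 1 of all probes tested passed with 4 Gy serum, and it was lower, so neither call held there. Of 13 loading and trimming helpers 0 passed.

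With 8 Gy serum 46.4% of all genes passed. Of 13 loading and trimming helpers 4 were higher and 2 lower. H2-Q7 and H2-Q10, nonclassical class I heavy chains, were higher by 0.59 and 0.57, while Canx, the chaperone calnexin, was lower by −0.44 and the heavy chain gene H2-T22 by −0.68. All 3 constitutive catalytic subunits were lower, Psmb5 by −0.68 ± 0.11, Psmb6 by −0.50 ± 0.14 and Psmb7 by −0.41 ± 0.08 (limma adjusted p at most 0.00776). Of 7 proteasome activator and assembly genes 4 were lower, among them the activator subunit Psme1 (−0.32) and the assembly chaperone Psmg1 (−0.50), and 0 higher.

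The regulators and the interferon gamma targets gave no single direction with 8 Gy serum. Of 10 regulators of the class I genes, Stat2, a subunit of the interferon-stimulated transcription factor complex (1.08 ± 0.24), and Rela, a subunit of NF-kappa B (0.46 ± 0.12), were higher, and the interferon regulatory factors Irf1 (−0.26 ± 0.08) and Irf2 (−0.64 ± 0.14) were lower. Of 8 genes of interferon gamma reception, Socs3, a feedback inhibitor, was higher (0.83 ± 0.22), and the receptor chain Ifngr1 (−0.28) and the phosphatases Ptpn2 (−0.44) and Ptpn11 (−0.43) were lower. Of 13 interferon gamma targets outside antigen presentation, the guanylate-binding protein gene Gbp6 was higher (2.17 ± 0.49), and Gbp3 (−0.64) and Irgm2 (−0.52) were lower. With serum of irradiated mice, 6 of these 13 were higher and 0 lower in the 20-day set, where 57.9% of all genes passed. Between control sera it was 7 higher and 1 lower, with 66.5% over all genes.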

How the data were processed

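RNA of MEFs was hybridised to 20 1-colour Agilent arrays, 5 per group. Per the file headers the spots were read with Agilent Feature Extraction 10.5.1.1, and version 11.0 is named in the submitters' processing notes. The deposited scanner files hold the processed signal, a background-corrected intensity, with the scanner's quality marks per spot. The authors' deposited table of log2 values, whose centring is not stated (column medians −0.115 to 0.224), correlated with the recomputed values at r of 0.998 or above and served as an alternative. The processed signal was taken to log2, spots of a probe were averaged after 50 to 181 outlier spots per array were left out, and log2 of each array's 75th percentile (731 to 1464) was subtracted.

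The 26233 probes that every array of some group measured well above background entered limma 3.58.1 (R 4.3.3), with 1 mean per group and Benjamini-Hochberg adjustment at 0.05. All 4 groups shared 1 estimate of the spread per probe, so uneven 20-day control arrays could also widen the standard errors of the 10-day comparison. The number of arrays limits the precision. Probes were named through RefSeq (GRCm38.p6), which named 24844 probes; 16330 stayed unnamed. Lists used 1 probe per gene, and the text names at most 4 genes per list and comparison, those with the smallest p among genes that passed. Members, lists and the rule for named genes were chosen with earlier results of these data known. Alternatives were other scalings and normalisations, normexp together with quantile normalisation, other filters, 1 probe per gene, only the groups compared, slide and replicate blocks, the deposited log2 values, each array left out, and, added after seeing the data, the arrays of single slides left out. Deviations of same-numbered arrays correlated at r of 0.13 to 0.40 in the 20-day set, where the numbers also follow the slides, and at −0.05 to 0.16 in the 10-day set, so that every pair was above 0.1 only in the 20-day set. The labels state no pairing.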

Additional observations from a re-analysis of the deposited data

Results flagged for a closer look

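Of 68 groups of 5 arrays (17 probes in 4 groups), 4 held an array far from the others, and chance flags about 1 in 20. The B2m probe A_51_P129012 read 4.99 on 8 Gy array 2, where the next lowest 8 Gy array read 5.48. The Tapbp probe A_52_P684830 read −0.73 on 10-day control array 3, with the next highest at −0.96, and −2.7 on 20-day control array 4, with the next lowest at −2.33. The H2-M3 probe A_51_P469968 read 1.14 on 20-day control array 2, and the next highest control array read 0.83.

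The response to 8 Gy serum differed from that to 4 Gy serum by a test of the difference for 6 probes (limma, adjusted p under 0.05). The differences were 0.64 for Tap1, 0.57 for Tap2, 1.13 for Tapbp probe A_52_P684830, 1.37 for H2-K1 probe A_52_P50496, and −0.72 and −0.96 for the H2-M3 probes A_51_P469968 and A_52_P490263. Dose, day, set and scan differ together between these responses and cannot be told apart.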

How the results depend on the processing

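With 4 Gy serum, 0 probes passed under 11 of the alternatives and whichever single array was left out (0 to 0). These fits held 17 member probes, or 10 with 1 probe per gene. One probe (1), H2-M3 A_52_P490263, passed in a fit of only these groups and with the authors' deposited log2 values, and 3 passed without the irradiated arrays of slide 2. The count with 8 Gy serum was 8 (5 higher, 3 lower) to 12 over all alternatives with 17 probes and 11 to 12 with 1 array left out. The difference of responses gave 6 to 9 and, with 1 array left out, 6 to 7. The set comparisons gave 10 to 14 with serum of irradiated mice and 11 to 16 with control serum, and with 1 array left out 12 to 14 and 12 to 15.

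Among called values or values that became called, these turned sign: B2m probe A_51_P129006 was −0.43 with 8 Gy serum and −0.60 in the difference of responses without the control arrays of slide 4. Without those of slide 5 the difference of responses for this probe was 0.59 (limma adjusted p = 0.00569), and it was 0.11 over all arrays. Between control sera, H2-K1 probe A_51_P198434 was −0.17 with quantile normalisation, −0.19 with cyclic loess and −0.18 with normexp and quantile normalisation together, and Psmb10 was −0.18 with the last. The cause was not tested. Among uncalled values, 6 of 17 probes kept their sign with 4 Gy serum without the irradiated arrays of slide 3, and Psmb9 (−0.08) and Psmb10 (−0.21) turned with 8 Gy serum without slide 4. With the replicate block the counts were 0 with 4 Gy serum, 11 with 8 Gy serum, 6 for the difference of responses, 14 with irradiated sera and 13 with control sera, where Psmb10 was lost (adjusted p = 0.0622).

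Over all probes, calls with 4 Gy serum numbered 1378, against 3626 in a fit of only these groups, 3404 with the deposited values, 919 without a filter, 27 with slide as a fixed block, 1 with slide as a random block, and 4548 or 0 without the irradiated arrays of slide 2 or 3 (858 at an unadjusted p under 0.05 in the last case). The split of higher and lower calls was 1011 and 367, but 953 and 655 with quantile normalisation and 811 and 670 with arrays scaled to their median. With 8 Gy serum it was 5409 and 7188, but 3806 and 9933 after scaling to the array median, which placed the median change of all probes at −0.20 in place of −0.06. A slide could be a fixed block only in the 10-day set, and the deposited values were not set across the sets.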

Other observations

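Genes whose profile over the 20 arrays was most like the mean profile of the 10 genes were Clec4e (Pearson's r of 0.938), Glrx (0.935), Slfn2 (0.932), Ifi204 (0.929) and Fth1 (0.929). After the group means were removed they were Lgals3bp (0.861), H2-Q7 (0.851), Parp14 (0.800), Oas1a (0.799) and Zmynd19 (0.795). The arrays share set and slide, and the correlations are descriptions. Over all arrays, r was −0.92 between Tap1 and H2-M3 and 0.94 between H2-M3 and Psmb8, so the mean profile does not describe all 10 genes. Tap1 and H2-D1 had an r of −0.02 over all arrays and 0.80 after the group means were removed, and B2m and Tap1 had −0.91 and −0.28.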
